A study of Mus musculus with 6 samples.

Results

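The cardiac myosin heavy chain genes Myh6, Myh7 and Myh7b and the antisense RNA Mhrt were followed in mouse heart muscle cells with and without a knockdown of Acly, the gene of ATP citrate lyase. These 4 genes were taken by name and identifier, together with every annotated gene whose exons overlap theirs on the other strand, which added 4 more (Gm49130, Gm29015, Gm31251 and Trpc4ap). Of these 8 genes, 6 were among the 46078 features counted, and Gm49130 and Gm31251 were not. Heart muscle cells were isolated by perfusion of the heart, and their RNA was read in 2 groups, Acly-KD cells from MyH6-Cas9 mice (Acly_KD, n = 3) and wildtype cells (control, n = 3). Cas9 in such mice is driven by the promoter of Myh6, so it is made in heart muscle cells, and the labels do not say whether the control mice carried it. Age and sex are not given in the labels. The labels also do not say whether libraries came from separate animals, and p-values here measure only how far libraries vary, which may be technical. Values of 3 libraries are given in the order of replicates 1, 2 and 3.

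Myosin heavy chains are the motor proteins of the thick filament of the sarcomere. Myh6 encodes the fast alpha chain that dominates in the adult mouse ventricle, and Myh7, next to it on the chromosome, encodes the slower beta chain of the fetal heart and of slow skeletal muscle. A shift of heart muscle towards Myh7 is a known mark of pressure load, heart failure and low thyroid hormone in rodents. Mhrt, also called Myheart, is a heart RNA transcribed from the other strand of the Myh7 end of the locus, and Myh7b is a distant relative that is expressed at low level in heart. Each of the 3 genes carries a microRNA in an intron, Mir208a, Mir208b and Mir499.

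The strand of the counts decides what each feature of the locus can show. Of 45106 nuclear features matched to the annotation, the 18% with exons opposite to exons of another gene held 91.9% of the nuclear counts. The library kit marks strand, and such a distribution arises when reads are counted on the strand opposite to their transcript; which setting the counting used is not stated in the sources at hand. Each feature was therefore described as deposited, under its own name, and reads of the Mhrt feature were also taken as a reading of the transcript on the other strand, Myh7 mRNA. Reads of both kinds of transcript cannot be told apart in a feature.

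Myh6 (chr14:54941921-54966927, mm10, minus strand) and Myh7 (chr14:54970684-54994626, minus strand) are 3757 bases apart. Mhrt (chr14:54968678-54974349, plus strand) starts between them, 1751 bases from the start of Myh6, and runs into the last exons of Myh7. Of its 1214 exonic bases, 484 lie opposite to exons of Myh7 at the places of exons 40, 38, 36 and 35; Mhrt exon 4 faces exon 36 of the main Myh7 transcript over 45 of its 66 bases, and the rest of it faces an exon of another annotated Myh7 transcript. Gm29015 (chr14:54973029-54973359, plus strand) is an antisense gene of 207 exonic bases that sits inside an intron of Mhrt, and 142 of its bases lie opposite to exons 37 and 36 of Myh7. No counted feature has exons opposite to Myh6: the only gene there, Gm49130, shares 114 bases with it and was not counted. Myh7b (chr2:155611212-155634307, plus strand) shares 37 bases at its 3′ end with Trpc4ap (chr2:155634271-155692384, minus strand), which encodes a protein associated with a calcium channel.

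The stretches that couple Mhrt and Gm29015 to Myh7 are shown because each read counted in them can belong to either strand of the same bases. They are given on the plus strand, 5′ to 3′, with bases opposite to an annotated Myh7 exon in capitals, from the GENCODE M21 transcripts of the same build; of Mhrt exon 5, which has 472 bases, the first 219 are shown.
Mhrt exon 2, chr14:54971410-54971490: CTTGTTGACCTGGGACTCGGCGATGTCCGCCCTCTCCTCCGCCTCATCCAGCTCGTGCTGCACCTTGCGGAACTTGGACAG
Mhrt exon 3, chr14:54972765-54972912: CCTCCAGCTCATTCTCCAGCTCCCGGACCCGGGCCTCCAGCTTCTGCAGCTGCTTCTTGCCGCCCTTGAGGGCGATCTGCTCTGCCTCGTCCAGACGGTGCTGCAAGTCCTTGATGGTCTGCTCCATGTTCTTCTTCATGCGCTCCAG
Mhrt exon 4, chr14:54973461-54973526: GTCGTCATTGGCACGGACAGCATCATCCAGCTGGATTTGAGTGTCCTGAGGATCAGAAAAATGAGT
Mhrt exon 5, chr14:54973878-54974096: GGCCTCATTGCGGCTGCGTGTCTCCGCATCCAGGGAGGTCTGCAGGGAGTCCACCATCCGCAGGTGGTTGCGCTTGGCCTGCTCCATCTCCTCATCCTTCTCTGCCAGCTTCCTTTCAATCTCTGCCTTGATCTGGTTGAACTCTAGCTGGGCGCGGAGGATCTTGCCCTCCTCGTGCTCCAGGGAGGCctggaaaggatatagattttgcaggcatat
Gm29015 exon 1, chr14:54973029-54973154: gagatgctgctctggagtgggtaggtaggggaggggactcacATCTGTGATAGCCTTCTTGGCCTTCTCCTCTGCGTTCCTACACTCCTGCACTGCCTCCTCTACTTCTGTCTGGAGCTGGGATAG
Gm29015 exon 2, chr14:54973279-54973359: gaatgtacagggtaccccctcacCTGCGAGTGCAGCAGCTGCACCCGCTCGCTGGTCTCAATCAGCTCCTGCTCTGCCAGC
Exons 2, 3 and 4 of Mhrt are in capitals throughout. The bases of Mhrt that face no Myh7 exon are in its first exons, which lie beyond the 3′ end of Myh7, and in the rest of exon 5.

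**Figure D1:**
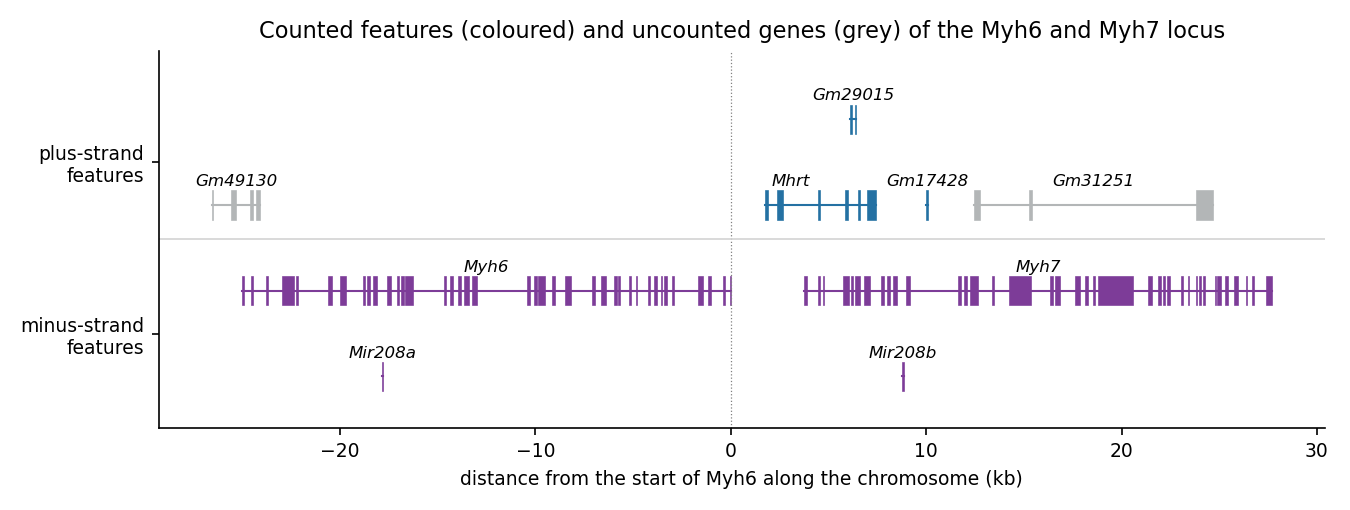
Map of the locus by distance from the start of Myh6 (kb), with exons as boxes, plus-strand features above and minus-strand features below. Blue and purple features were counted, and grey genes (Gm49130 and Gm31251) were not; Mhrt and Gm29015 lie over the 3′ end of Myh7, and no counted feature lies over Myh6.

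Reads in features numbered 460222 to 799868 in the Acly_KD libraries and 271463 to 814765 in the controls, 2.81% to 3.07% of the uniquely aligned reads of a library. The targeted gene Acly received 0 reads in all 3 Acly_KD libraries and 1, 5 and 6 reads in control, too few to check the knockdown, and its mRNA was read by no feature on the other strand. All 6 markers of heart muscle cells had reads, at a summed level of 1660 to 5975 CPM (read counts scaled to library size by the TMM method) in Acly_KD and 4821 to 5647 CPM in control. Markers of other cell types summed to less at their own features: 30.7 to 226 CPM in Acly_KD and 82.0 to 121 CPM in control for 6 endothelial markers, 41.5 to 117 and 91.0 to 104 CPM for 5 smooth muscle and pericyte markers, 36.8 to 63.5 and 70.5 to 80.1 CPM for 5 atrial markers with Sln at 0, 16.9 to 26.9 and 12.9 to 24.8 CPM for 6 fibroblast markers, 0 to 11.2 and 8.63 to 25.5 CPM for 4 immune markers with Ptprc at 0, and 6.14 to 17.1 and 11.5 to 29.6 CPM for 4 red cell markers. Of skeletal muscle, Tnni1, Myh1, Myh2 and Myh4 were at 0; the 3 slow markers summed to 8.75 to 14.7 CPM in Acly_KD and 7.19 to 15.4 CPM in control, and the 6 fast markers to 135 to 440 and 302 to 386 CPM, mostly Ckm, which heart muscle also makes. In the opposite-strand reading 4 of these markers passed the filter on low counts, and their order was another one. There the atrial marker Nppa, a natriuretic peptide gene, had 12036, 3514 and 5528 CPM in Acly_KD and 2575, 8153 and 3503 CPM in control, more than Myl2, the only heart muscle marker tested, in every library, on a scale not corrected for gene length. Kcnj3, an atrial potassium channel gene, had 1050, 1144 and 1079 CPM in Acly_KD and 1266, 1549 and 1486 CPM in control, lower in every Acly_KD library (adjusted p = 0.230 in edgeR). Ckm had 43294, 43026 and 49172 CPM in Acly_KD and 51733, 53740 and 49687 CPM in control, also without overlap (adjusted p = 0.471 in edgeR). All Acly_KD libraries were below all controls for 6.61% of the 1453 genes tested in this reading. The Tsix feature, which lies opposite to Xist, had 0 reads in the Acly_KD libraries and 0, 129 and 124 reads in control. Control 2 and control 3 thus differ from the other libraries. What sets them apart, which may include sex, is partly confounded with group. Nuclear features without opposite-strand exons held 4.94%, 6.94% and 10.3% of nuclear feature reads in Acly_KD and 9.01%, 9.0% and 7.77% in control. The part of these differences in the results below was not tested, except where a value is given.

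Myh6, the alpha chain gene, has no counted feature on its other strand, so its own feature is its only possible reading here. If reads were counted on the opposite strand, this feature is not set to read Myh6 mRNA. How many of its reads then come from Myh6 mRNA was not tested. The reading by opposite strand moves all these reads to Gm49130, which faces only 114 of the 6726 exonic bases of Myh6 (1.69%). The log2 fold change of -0.43 under that name is thus the value of the Myh6 feature and no measure of Gm49130. The values that follow are those of the Myh6 feature. It held 1496, 1939 and 6717 reads in Acly_KD and 2195, 5933 and 4067 reads in control. Scaled to library size these were 2297, 4735 and 8396 CPM in Acly_KD and 7992, 7020 and 5848 CPM in control. Acly_KD 1 was the lowest and Acly_KD 3 the highest of all 6 libraries, so the groups overlapped. The log2 fold change, Acly_KD over control, was -0.43 with a 95% interval from -1.73 to 0.86 (adjusted p = 0.964 by edgeR's quasi-likelihood method, with p adjusted by Benjamini and Hochberg's procedure over 2952 features). Without Acly_KD 1 the log2 fold change was -0.08, and without Acly_KD 3 it was -0.94 (adjusted p = 0.108 in edgeR). In bulk RNA, whichever strand a feature reads, fewer cells of a type and less RNA per cell cannot be told apart.

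The Myh6 feature had a profile over libraries close to that of other sarcomere features, and features of other cell types were also low in Acly_KD 1. Against the mean of the controls (log2 of CPM + 1), it lay at -1.59, -0.54 and 0.28 in Acly_KD and at 0.21, 0.03 and -0.24 in control. The median of 9 thin filament features, actin and its regulators, lay at -1.58, -0.44 and 0.32 in Acly_KD and at 0.14, 0.07 and -0.21 in control. The median of 10 features of the thick filament and its partners lay at -1.55, -0.43 and 0.38 in Acly_KD and at 0.12, 0.23 and -0.36 in control. Both lists followed Myh6 in the order of the Acly_KD libraries. The median of the 2 endothelial markers tested lay at -2.76, -1.19 and 1.16 in Acly_KD and at 0.24, 0.26 and -0.50 in control. That of the 3 smooth muscle and pericyte markers tested lay at -1.40, 0.03 and 0.11 in Acly_KD and at 0.02, 0.06 and -0.09 in control. Ckm, the only fast skeletal marker tested, lay at -1.36, -0.16 and 0.35 in Acly_KD and at 0.17, 0.02 and -0.19 in control. Acly_KD 1 was thus the lowest of the 6 libraries for each of these lists, and the likeness to Myh6 is not particular to sarcomere features. Not every list had this order. The median of the 4 tested regulators of Myh6 and Myh7 transcription lay at -0.27, -1.30 and 0.18 in Acly_KD. The only red cell marker tested lay at -1.20, 0.14 and -1.46 in Acly_KD. Among 1805 features with at least 20 reads on average, those most like Myh6 were Tpm1 (tropomyosin), Actc1 (cardiac actin), Acaa2 (a beta-oxidation thiolase), Tnni3 (cardiac troponin I) and Slc25a4 (the mitochondrial ADP/ATP carrier). Their Pearson correlation with Myh6 over the 6 libraries was 0.991 to 0.999, on log2 of CPM + 1, and 118 of the 1805 exceeded 0.9. These points share library and depth, and the share of reads in features without opposite-strand exons, given above, had its lowest value in the library in which they were lowest and its highest in the library in which Myh6 was highest. With library size taken from those features instead, a setting chosen after seeing the data, the log2 fold change of Myh6 was -0.25 (adjusted p = 0.839 in edgeR).

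**Figure D2:**
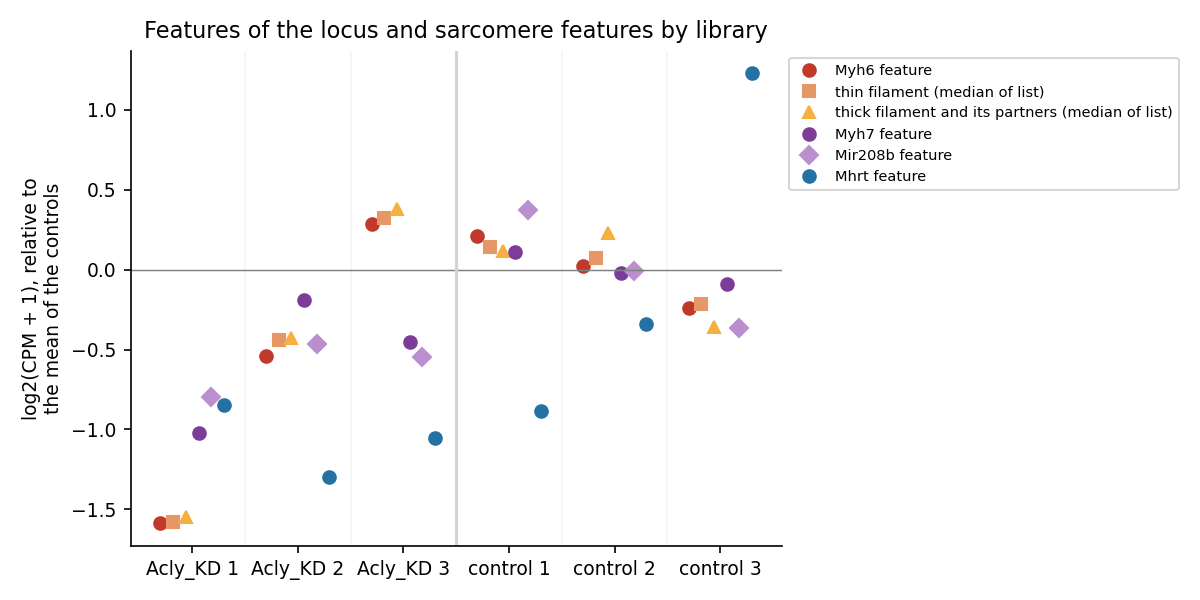
Level of each feature or list median by library, as log2(CPM + 1) relative to the mean of the 3 controls, Acly_KD left of control. Myh6 and the filament lists lie close together in every library, lowest in Acly_KD 1 and above 0 in Acly_KD 3, while Mhrt is high in control 3 only.

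Myh7, the beta chain gene, had 1074, 1198 and 1953 reads at its own feature in Acly_KD and 992, 2790 and 2181 reads in control. These were 1649, 2926 and 2441 CPM in Acly_KD and 3612, 3301 and 3136 CPM in control. All 3 Acly_KD libraries lay below all 3 controls. As with Myh6, this feature is not set to read Myh7 mRNA if reads were counted on the opposite strand. The log2 fold change was -0.52 (SE 0.18, 95% interval from -0.90 to -0.14), with an unadjusted p of 0.0114 and an adjusted p of 0.579 in edgeR, so it did not pass the test. As deposited, 0 features of 2952 passed in either direction (0%) in edgeR, although 180 had an unadjusted p under 0.05, and DESeq2 passed 0, with 121 under that value. All Acly_KD libraries were below all controls for 5.56% of the 2952 features and above them for 5.83%. Scaled to the reads of features without opposite-strand exons, the log2 fold change of Myh7 was -0.20 and its groups overlapped (adjusted p = 0.881 in edgeR). That setting was chosen after seeing the data, and the share of those reads was itself lowest in Acly_KD 1, at 4.94%. With the main scaling and without Acly_KD 1, the log2 fold change of Myh7 was -0.31.

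Mir208b, the microRNA gene inside Myh7, is counted as a feature of 77 bases between exons 31 and 32 on the strand of Myh7. It held 63, 50 and 92 reads in Acly_KD and 60, 142 and 91 reads in control. These were 96.7, 122 and 115 CPM in Acly_KD and 218, 168 and 131 CPM in control. Again the groups did not overlap, with all Acly_KD libraries lower, as for 5.56% of the 2952 features. With counting on the opposite strand, this feature is set to read plus-strand transcripts and not those of Myh7. How many of its reads then come from Myh7 transcripts was not tested. The log2 fold change of Mir208b was -0.61 (SE 0.23, 95% interval from -1.10 to -0.11, adjusted p = 0.659 in edgeR), so it did not pass either. Scaled to the reads of features without opposite-strand exons, it was -0.27 and the groups overlapped (adjusted p = 0.836 in edgeR). This setting, too, was chosen after seeing the data.

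Mir208b and Myh7 kept a similar proportion within libraries. Mir208b reads per Myh7 read were 0.0587, 0.0417 and 0.0471 in Acly_KD and 0.0605, 0.0509 and 0.0417 in control, a log2 difference of -0.05 (two-sided exact permutation test, p = 0.8). Over the 6 libraries the correlation of their log2 levels was 0.84, against 0.79 between Myh7 and Myh6 and 0.66 between Mir208b and Myh6. Mir208a and Mir499, the microRNA genes inside Myh6 and Myh7b, had 0 reads in every library. The libraries were made from poly-A RNA, so the Mir208b reads describe longer transcripts that cross the microRNA gene and not the mature microRNA. The mature microRNAs are shown, from RefSeq on GRCm38.p6, because the 3 genes share a family and differ in counted reads; capitals mark the seed, bases 2 to 8.
mmu-miR-208a-3p: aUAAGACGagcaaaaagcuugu
mmu-miR-208b-3p: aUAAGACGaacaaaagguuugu
mmu-miR-499-5p: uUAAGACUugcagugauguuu
The seeds of miR-208a-3p and miR-208b-3p are identical, and the 2 mature sequences of 22 bases differ at 3 positions, counted from the 5′ end with the base of miR-208a-3p first (G10A, A16G and C18U).

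Mhrt, the antisense RNA that in mice is known to protect the heart from enlargement under pressure load, was the feature of the locus with the widest range. It held 2397, 1100 and 2549 reads in Acly_KD and 983, 4404 and 10770 reads in control. These were 3680, 2686 and 3186 CPM in Acly_KD and 3579, 5211 and 15487 CPM in control. Control 3 stood far above the other 5 libraries, and control 1 lay just below Acly_KD 1, so the groups overlapped. The means were 3184 ± 497 CPM in Acly_KD and 8092 ± 6456 CPM in control (SD, n = 3 each). The log2 fold change was -1.35, with a 95% interval from -3.02 to 0.33 (adjusted p = 0.889 in edgeR). Without control 3 it was -0.46 (adjusted p = 0.985 in edgeR).

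Taken as a reading of Myh7 mRNA, the same reads were tested among 1453 genes read through features on the other strand. In this reading Myh7 had 6694, 5014 and 6443 CPM in Acly_KD and 6993, 10226 and 29362 CPM in control. All Acly_KD libraries were below all controls here, as for 6.61% of the 1453 genes, with 8.12% the other way round. Control 1 lay only just above Acly_KD 1, and with the scaling of the counts as deposited it lay just below. The log2 fold change was -1.36, with a 95% interval from -3.08 to 0.36 (adjusted p = 0.621 in edgeR), and the test called 0.206% of genes lower and 0.206% higher. Without control 3 the log2 fold change was -0.50 (adjusted p = 0.194 in edgeR). When the fit let control 2 and control 3, which have Tsix reads, differ from control 1, it was -0.21 (adjusted p = 0.963 in edgeR), which sets control 1 against the Acly_KD libraries.

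**Figure D3:**
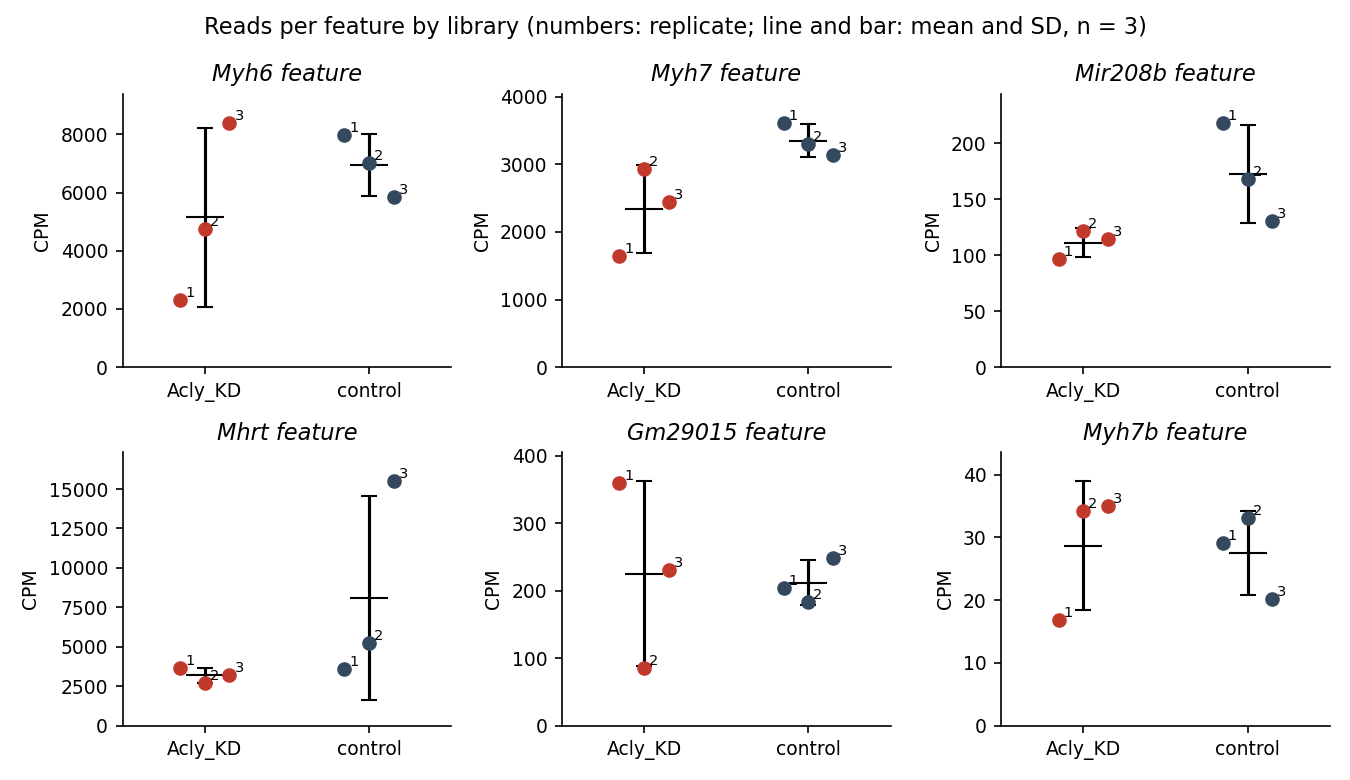
Reads of 6 features by library in CPM, Acly_KD left of control, with replicate numbers beside the points and the mean and SD (n = 3) as a line and bar. Myh7 and Mir208b are lower in every Acly_KD library than in every control, Mhrt stands at 15487 CPM in control 3, and Myh6, Gm29015 and Myh7b overlap between groups.

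Gm29015 gave a second reading of the strand opposite to Myh7, from bases between exons 3 and 4 of Mhrt. It held 234, 35 and 185 reads in Acly_KD and 56, 155 and 173 reads in control. These were 359, 85.5 and 231 CPM in Acly_KD and 204, 183 and 249 CPM in control, with both the highest and the lowest value in Acly_KD. The log2 fold change was 0.11, with a 95% interval from -0.97 to 1.19 (adjusted p = 0.977 in edgeR). Without Acly_KD 1 it was -0.37, without Acly_KD 2 it was 0.49, and with a replicate block or in limma-voom it was also below zero.

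Gm29015 did not share the high value of Mhrt in control 3. Mhrt reads per Gm29015 read were 10.2, 31.4 and 13.8 in Acly_KD and 17.6, 28.4 and 62.3 in control. As a share of the reads of both features, Gm29015 took 8.89% (95% exact binomial interval 7.83% to 10%), 3.08% (2.16% to 4.26%) and 6.77% (5.85% to 7.77%) in Acly_KD. In the controls it took 5.39% (4.10% to 6.94%), 3.4% (2.89% to 3.97%) and 1.58% (1.36% to 1.83%). The lowest share, in control 3, lay outside the interval of every other library, while Acly_KD 2 and control 2 had much the same share. These intervals cover counting error only. The log2 ratio of Mhrt to Gm29015 was 4.04 ± 0.84 in Acly_KD and 4.97 ± 0.92 in control (SD, n = 3 each). The difference was -0.94, and the groups overlapped (two-sided exact permutation test, p = 0.3, where 0.1 is the smallest possible).

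Ratios between the myosin features did not separate the groups. Mhrt reads per Myh7 read, over the whole of both features, were 2.23, 0.918 and 1.31 in Acly_KD and 0.991, 1.58 and 4.94 in control. The log2 difference was -0.51 (two-sided exact permutation test, p = 0.6), and without control 3 it was 0.15. Mhrt reads per Myh6 read were 1.6, 0.567 and 0.379 in Acly_KD and 0.448, 0.742 and 2.65 in control, a log2 difference of -0.45 (exact permutation test, p = 0.6) that was 0.28 without control 3. Myh7 reads per Myh6 read were 0.718, 0.618 and 0.291 in Acly_KD and 0.452, 0.470 and 0.536 in control. The Acly_KD libraries lay on both sides of the narrow range of the controls, and the log2 difference was 0.06 (exact permutation test, p = 1). Over the 5 ratios computed, p adjusted by Benjamini-Hochberg was 1 for each, and the ratios to Gm29015, of Myh7 to Myh6 and of Mir208b to Myh7 were added after the data were seen.

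**Figure D4:**
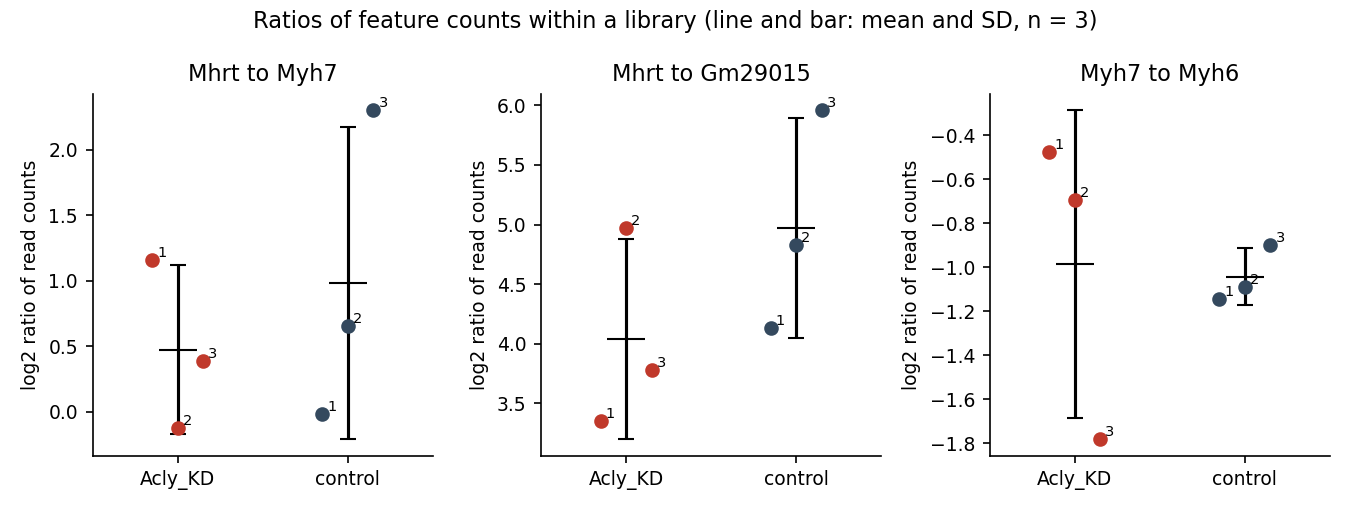
Log2 ratios of read counts within a library for 3 pairs of features, Acly_KD left of control, with the mean and SD (n = 3) as a line and bar. The groups overlap in all 3 panels; control 3 has the highest ratio of Mhrt to Myh7 and of Mhrt to Gm29015, and the ratio of Myh7 to Myh6 is spread widely in Acly_KD and narrowly in control.

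Levels per length, in CPM per kilobase of exon, put the features in another order than their reads. Mhrt was at 2213 to 3031 in Acly_KD and 2948 to 12757 in control. Mir208b was at 1256 to 1586 in Acly_KD and 1699 to 2837 in control, and Gm29015 at 413 to 1736 and 886 to 1202. Myh6 was at 341 to 1248 in Acly_KD and 869 to 1188 in control, and Myh7 at 191 to 340 and 364 to 419. Mhrt was highest of these in every library and Myh7 lowest, and Mir208b, Gm29015 and Myh6 changed places between libraries. All exonic bases of a feature enter its length, whereas only 484 of the 1214 bases of Mhrt lie opposite to Myh7 exons. The order is thus one of features and not of transcripts. Features shorter than a fragment gather reads that only touch them, so the values of Mir208b and Gm29015 per length are too high by an unknown factor. Gm17428, a gene of 93 bases on the plus strand inside the intron between exons 30 and 31 of Myh7, was looked up after the data were seen. It held 1, 3 and 2 reads in Acly_KD and 4, 8 and 14 reads in control, too few for the test.

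Myh7b, the third sarcomeric heavy chain gene of the heart, had 11, 14 and 28 reads in Acly_KD and 8, 28 and 14 reads in control. These were 16.9, 34.2 and 35.0 CPM in Acly_KD and 29.1, 33.1 and 20.1 CPM in control, with full overlap of the groups. This feature, too, is not set to read its gene's mRNA if reads were counted on the opposite strand. The log2 fold change was 0.06, with a 95% interval from -0.90 to 1.02 (adjusted p = 0.984 in edgeR), and its sign turned under several settings. Its neighbour Trpc4ap, opposite to its last 37 bases, had 4, 3 and 8 reads in Acly_KD and 2, 9 and 8 reads in control and did not pass the filter on low counts. Per length, Myh7b was at 2.55 to 5.28 CPM per kilobase in Acly_KD and 3.03 to 4.99 in control.

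**Figure D5:**
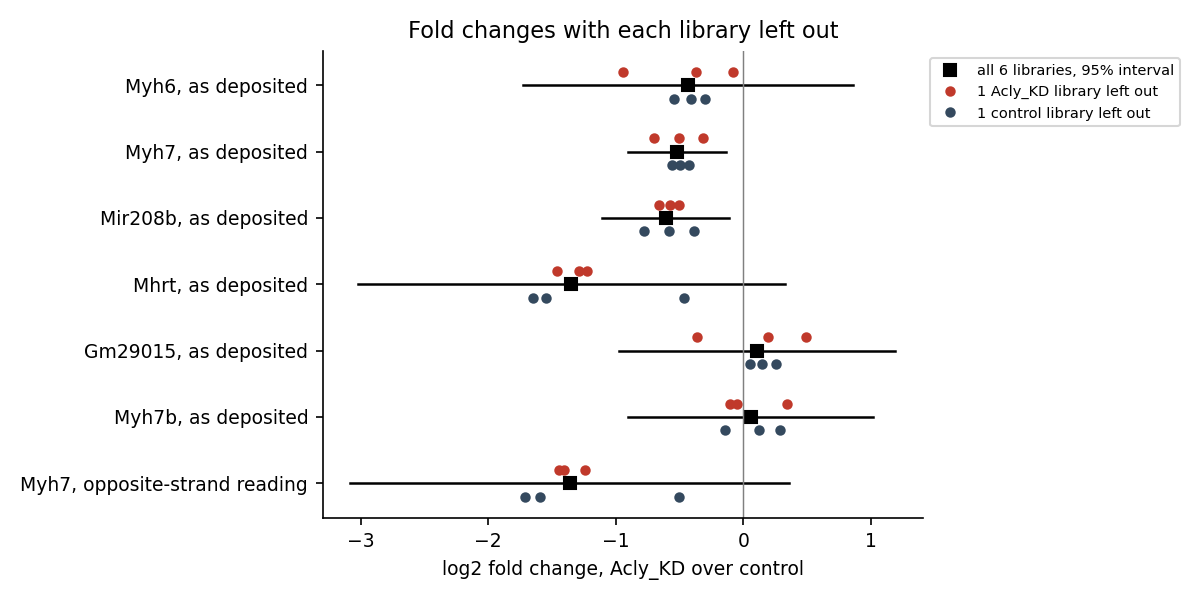
Log2 fold change of each feature, Acly_KD over control, with all 6 libraries (square, 95% interval) and with 1 library left out (red, an Acly_KD library; dark, a control). The intervals of Myh7 and Mir208b as deposited lie below zero before adjustment, that of Mhrt runs from -3.02 to 0.33 and its value moves to -0.46 without control 3, and Myh6 runs from -0.94 to -0.08 with 1 Acly_KD library left out.

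Partners and regulators of the myosins were described by the counts of their features. As deposited, these are not set to read their mRNA if reads were counted on the opposite strand. None of the 10 tested of 14 genes of the thick filament and its partners passed, with 9 below zero and a median log2 fold change of -0.35, where the median of all 2952 features was -0.04. Among the most abundant were Myl2 (-0.65), the ventricular regulatory light chain, and Ttn (-0.40), titin. None of the 9 tested of 11 thin filament genes passed, with 7 below zero and a median of -0.34. The most abundant were Tnnt2 (-0.54), cardiac troponin T, Tpm1 (-0.53) and Actc1 (-0.34). By library, the medians of the thick and thin filament lists were lowest in Acly_KD 1 (-1.55 and -1.58). In Acly_KD 3 they lay above the mean of the controls (0.38 and 0.32). In the opposite-strand reading 3 of the thick filament genes were tested and 0 passed: Myl2 was at 0.11, Unc45b, a myosin chaperone, at 0.01 and Ttn at 0.58 (adjusted p = 0.0731 in edgeR). All Acly_KD libraries were above all controls for Ttn, as for 8.12% of the 1453 genes. In that reading Myl2 had 2374, 1773 and 2245 CPM in Acly_KD and 2113, 2234 and 1587 CPM in control. Its highest value was in Acly_KD 1, the library with the lowest level of the Myh6 feature, and its lowest in control 3. The only thin filament gene tested there, Tmod1, which caps the thin filament, was at -0.11, and the median over all 1453 genes was 0.01.

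Among other myosin heavy chains, 6 of 11 had no reads in any library (Myh1, Myh2, Myh3, Myh4, Myh8 and Myh15). The 3 tested, all non-muscle or smooth muscle chains, did not pass: Myh9 (-0.24), Myh14 (-0.26) and Myh11 (-0.45). Of 25 regulators of Myh6 and Myh7 transcription 4 were tested as deposited, and 0 passed, with 3 below zero and a median of -0.24. Thra, the main thyroid hormone receptor of the heart, which activates Myh6, was at 163, 110 and 111 CPM in Acly_KD and 160, 181 and 151 CPM in control, a log2 fold change of -0.36 with a 95% interval from -0.83 to 0.11. Sp3 and Mef2d, also transcription factors, were at 0.40 and -0.13. In the opposite-strand reading Mef2d, a factor of muscle genes, was at -0.11, Gata6, a factor of heart development, at -0.47 and Purb, a repressor of Myh6, at 0.24, and 0 passed.

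The features whose profile was most like that of Mhrt were Gm26533, Sh3bgr, Romo1, Gm17178 and Prcd, with correlations of 0.916 to 0.923 over the 6 libraries, and 9 of the 1805 exceeded 0.9. All 5 had their highest value in control 3. Romo1, a mitochondrial membrane protein gene, had 81.4, 78.1 and 96.2 CPM in Acly_KD, against 83.7, 98.2 and 129 CPM in control. The range of these features was far narrower than that of Mhrt.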

How the data were processed

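Poly-A RNA libraries of isolated heart muscle cells (3 Acly_KD, 3 control, grouped by title) were prepared, per the labels' protocols, with a strand-marking kit. FastQC, TopHat2, SAMtools, HTSeq, DESeq2 and mm10 are named without versions, per the submitters' processing notes. The deposited values are raw counts per gene. Rows naming no gene, 97.4% to 97.7% of entries, stayed out of tests. Between libraries of a group, chi-square per degree of freedom was 4.37 to 13.4, so none repeated another.

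Exons came from GENCODE M21 (same build; 45143 of 46078 identifiers matched). All features were tested with edgeR 4.0.16 (R 4.3.3; TMM, filterByExpr at a minimum count of 10, robust quasi-likelihood, Benjamini-Hochberg at 0.05). In the opposite-strand reading, a feature's counts were moved to an overlapping gene on the other strand that held 80% or more of such overlap, and 50 shared bases or more, if that gene had fewer counts or was not counted; 2765 genes had reads, 140295 to 445228 per library. This gives Mhrt reads to Myh7 and Myh6 reads to Gm49130. Steps were tested on simulated data with 200 changed genes. Alternatives used DESeq2 1.42.0, limma 3.58.1, other scalings, filters and rules, a replicate block, and each library left out. Same-numbered libraries did not deviate together (correlations -0.18 to -0.02). Members and lists were chosen with earlier results of these data known. Named genes were the members, their opposite-strand partners, up to 3 abundant genes per list and the 5 features most like Mhrt and Myh6; Gm17428 was added, and 1 gene that this rule names is not reported here.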

Additional observations from a re-analysis of the deposited data

How the results depend on the processing

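No member passed the test under any alternative run (adjusted p of 0.108 or above in edgeR, DESeq2 and limma). Myh6, Myh7, Mir208b and Mhrt as deposited and the ratio of Mhrt to Gm29015 kept their direction throughout. So did Myh7 and Gm49130 in the opposite-strand reading, which hold the reads of the Mhrt and Myh6 features and add no separate result. The cause of the changes below was not tested. With 1 library left out, log2 fold changes ran from -0.94 to -0.08 for Myh6, -0.70 to -0.31 for Myh7, -0.78 to -0.39 for Mir208b, -1.65 to -0.46 for Mhrt, -0.37 to 0.49 for Gm29015 and -0.14 to 0.34 for Myh7b. In the opposite-strand reading they ran from -1.71 to -0.50 for Myh7 and -1.05 to -0.06 for Gm49130. Differences of log2 ratios ran from -1.01 to 0.15 for Mhrt to Myh7, -1.05 to 0.28 for Mhrt to Myh6, -1.40 to -0.44 for Mhrt to Gm29015, -0.19 to 0.46 for Myh7 to Myh6 and -0.19 to 0.08 for Mir208b to Myh7. Of single libraries, Myh7b was below zero without Acly_KD replicate 2 (-0.05), Acly_KD replicate 3 (-0.11) or control 3 (-0.14). The ratio of Myh7 to Myh6 turned without Acly_KD replicate 1 (-0.19) or 2 (-0.09), and that of Mir208b to Myh7 without Acly_KD replicate 2 (0.06) or control 1 (0.079). Myh7b also turned with library totals (-0.0070), all uniquely aligned reads as library size (-0.039) and the term for control replicates 2 and 3 (-0.030). Gm29015 turned in limma-voom (-0.44) and with the replicate block (-0.10).

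As deposited, against 0 features, limma-voom called 3, no filter on low counts 3 and scaling to features without opposite-strand exons 2, and 0 to 69 were called with 1 library left out, 69 of them without Acly_KD replicate 3. In the opposite-strand reading, against 6 genes, all uniquely aligned reads as library size gave 2, limma-voom 14, a minimum count of 30 gave 0 (98 at an unadjusted p under 0.05), no filter 30, the term for control replicates 2 and 3 gave 0 (96 at an unadjusted p under 0.05), at least 200 shared bases 3, the replicate block 12, and 1 library left out 1 to 20. The replicate block gave -0.61 for Myh6, -0.55 for Myh7, -0.59 for Mir208b, -1.06 for Mhrt and 0.09 for Myh7b as deposited. It gave -1.10 for Myh7 in the opposite-strand reading. Replicate numbers are not stated to pair libraries. At a minimum count of 30 Myh7b was not tested, and leaving out mitochondrial features does not apply to the opposite-strand reading, which holds none. Low counts limit Myh7b and Trpc4ap, and 3 libraries a group limit every test.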
